A study of Mus musculus with 6 samples.

Results

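The tumour necrosis factor (TNF) superfamily is a family of signalling proteins, most of them membrane-bound trimers, and of the receptors that bind them. It was followed in RNA of fibroblasts that had been sorted out of mammary tumours of mice (cancer-associated fibroblasts). Members were the rows of the count table whose symbol begins with Tnfsf or Tnfrsf and a digit, together with Fas, Fasl, Ltb, Ltbr and Ngfr. The rule found 32 of the 18197 symbols, of which 21 are receptors, 10 are ligands and 1 is an antisense RNA, Tnfsf13os. The group labelled mPGES-1 KO and the group labelled WT had 3 libraries each. All mice were C57BL/6 and bore tumours induced by the polyoma middle T oncogene (PyMT), harvested after 16 to 20 weeks, and the groups differ by label in microsomal prostaglandin E synthase-1 (mPGES-1), an enzyme that makes prostaglandin E2. The sources used here give neither the promoter of the oncogene, nor the kind of mPGES-1 deletion, nor the sort markers, nor whether each library came from its own mouse, so p-values measure the spread between libraries, which may be technical.

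Receptors of this family fall into a few working classes. Those with a death domain, such as the TNF receptor encoded by Tnfrsf1a and Fas, can recruit adaptors that start caspase-driven death or inflammatory signalling. Others lack that domain and bind TRAF adaptors directly, feeding the canonical or the non-canonical NF-kB pathway, and decoy receptors bind ligand without passing a full signal. In stroma the family is known for lymphotoxin signalling in lymphoid tissue organiser cells and for the wound and injury receptor encoded by Tnfrsf12a, and many other members are known mainly from lymphocytes.

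Only 2 members passed the test, both receptors that bind TRAF adaptors, and they moved in opposite directions. Tnfrsf12a, the receptor of the ligand TWEAK, rose 4.44-fold in libraries labelled mPGES-1 KO, and Ltbr, the receptor of membrane lymphotoxin, fell there to a level 3.60-fold lower than in libraries labelled WT. To show the regions just upstream of these genes, and of Tnfrsf9, the one member whose window held both an NF-kB and an AP-1 match, 250 bases before a RefSeq start (GRCm38.p6) are given 5′ to 3′ on the gene's strand. Capitals mark the GC box GGGCGG in the first and second, and an NF-kB (kappaB) motif and the AP-1 motif TGANTCA in the third, which is the downstream one of 2 listed Tnfrsf9 starts.
Tnfrsf12a, chr17:23677450-23677699, minus strand: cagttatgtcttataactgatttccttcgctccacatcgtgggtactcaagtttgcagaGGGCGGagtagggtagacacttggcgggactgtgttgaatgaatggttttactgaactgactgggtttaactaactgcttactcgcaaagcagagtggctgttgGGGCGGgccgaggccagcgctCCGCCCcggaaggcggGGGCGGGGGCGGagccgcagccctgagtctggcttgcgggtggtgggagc
Ltbr, chr6:125313886-125314135, minus strand: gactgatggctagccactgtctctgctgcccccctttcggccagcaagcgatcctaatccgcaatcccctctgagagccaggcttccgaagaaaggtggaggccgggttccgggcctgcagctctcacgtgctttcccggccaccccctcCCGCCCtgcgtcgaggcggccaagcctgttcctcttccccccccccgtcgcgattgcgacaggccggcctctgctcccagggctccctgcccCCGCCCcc
Tnfrsf9, chr4:150927749-150927998, plus strand: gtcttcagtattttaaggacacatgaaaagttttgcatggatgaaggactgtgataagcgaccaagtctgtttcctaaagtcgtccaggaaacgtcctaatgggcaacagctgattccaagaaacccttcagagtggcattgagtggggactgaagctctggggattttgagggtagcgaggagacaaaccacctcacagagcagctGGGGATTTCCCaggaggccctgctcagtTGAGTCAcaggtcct

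The Tnfrsf12a window held 5 GC boxes, beginning 191, 87, 66, 50 and 44 bases before the start, the last 2 directly adjoining, and the Ltbr window held 2, beginning 100 and 8 bases before it. The Tnfrsf9 window held 2 overlapping kappaB matches, beginning 43 and 42 bases before the start, and an AP-1 match 15 bases before it. Motifs were searched on both strands. RefSeq windows matched 25 of the 32 members, with 29 windows between them. A GC box was in 13 of these windows (44.8%), against 32.7% of all 32851 windows, an AP-1 match in 4 (13.8%), against 6.75%, and a kappaB match in 3 (10.3%), against 7.25%. The cAMP response element TGACGTCA was in 0 member windows and in 1.55% of all. These matches describe letters and are not binding sites.

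The targeted gene and the markers of other cell types were read first. Ptges, which encodes mPGES-1, stood at 186, 137 and 129 depth-scaled counts (CPM) in libraries labelled mPGES-1 KO, replicates 1 to 3 (the KO-labelled libraries), and at 31.9, 19.2 and 27.9 CPM in those labelled WT (the WT-labelled libraries). Ptges thus rose with the KO label (adjusted p = 0.0171 in edgeR), totals per gene do not separate a deleted part, and groups are named by label only, with every direction drawn from the labels. Library totals ran from 23013498 to 43648450 counts. Of 19 luminal epithelial markers 9 rose and 16 had groups that did not overlap, with higher values under the KO label. In sum these markers took 3.48% to 5.21% of counts in libraries labelled mPGES-1 KO against 0.785% to 1.37% in those labelled WT. Lalba went the other way with overlapping groups (log2 fold change -0.84, adjusted p = 0.346 in edgeR). Of 14 pericyte and smooth muscle markers 9 fell and 12 had groups that did not overlap, at a summed 0.0259% to 0.0513% in KO-labelled libraries against 0.350% to 0.985% in WT-labelled libraries. Among all tested genes 1.20% were called higher and 1.56% lower. Groups did not overlap for 12.2% of all tested genes with higher values under the KO label and for 15.7% with lower values. Fibroblast markers overlapped in sum, at 0.661% to 1.75% in KO-labelled libraries against 0.969% to 2.61% in WT-labelled libraries. Single ones differed, and of 11 tested edgeR called Dpp4 higher (log2 fold change 3.09) and Thy1 lower (-3.22). Thy1 and Col1a1 (-2.50, not called) had groups apart with lower values, and Dpp4 with higher values. Endothelial markers took 0.00206% to 0.0110% in KO-labelled libraries against 0.0156% to 0.0509% in WT-labelled libraries, but only 2 of 10 had groups that did not overlap, their median log2 fold change was -0.03, and Esam, the 1 that fell, held most of the counts under the WT label, while Pecam1 (2.39) and Cdh5 (1.92) had positive log2 fold changes that did not pass. The luminal, pericyte and fibroblast lists had all their markers above 0 in every library, including Pdgfra, Epcam and Rgs5. In such bulk samples fewer cells of a type and less RNA per cell cannot be told apart, and the part that these markers play in any result below was not tested.

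Of the 32 members, 29 had enough counts to be tested, and Tnfsf11, Tnfsf15 and Tnfrsf25 did not. By edgeR's quasi-likelihood test with Benjamini-Hochberg adjustment over 16543 genes, 1 member rose, 1 fell and 27 did not pass an adjusted p of 0.05. The called share of 6.9% of tested members stands beside 2.76% of all tested genes, of which 1.20% were called higher and 1.56% lower. An unadjusted p under 0.05 was reached by 10 members (34.5%), against 19.1% of all tested genes. DESeq2 called 7 members, against 12.7% of all tested genes, and limma-voom 5, against 11.8%. The 2 groups did not overlap for 12 tested members (41.4%), against 27.9% of all tested genes. These were 6 with higher values under the KO label, against a background of 12.2%, and 6 with lower values, against 15.7%. The median log2 fold change was -0.22 over tested members and -0.04 over all tested genes, and the median size of the log2 fold change was 1.23 and 0.75. No test of these shares was made, and members that the filter on low counts removed are not in them.

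**Figure D1:**
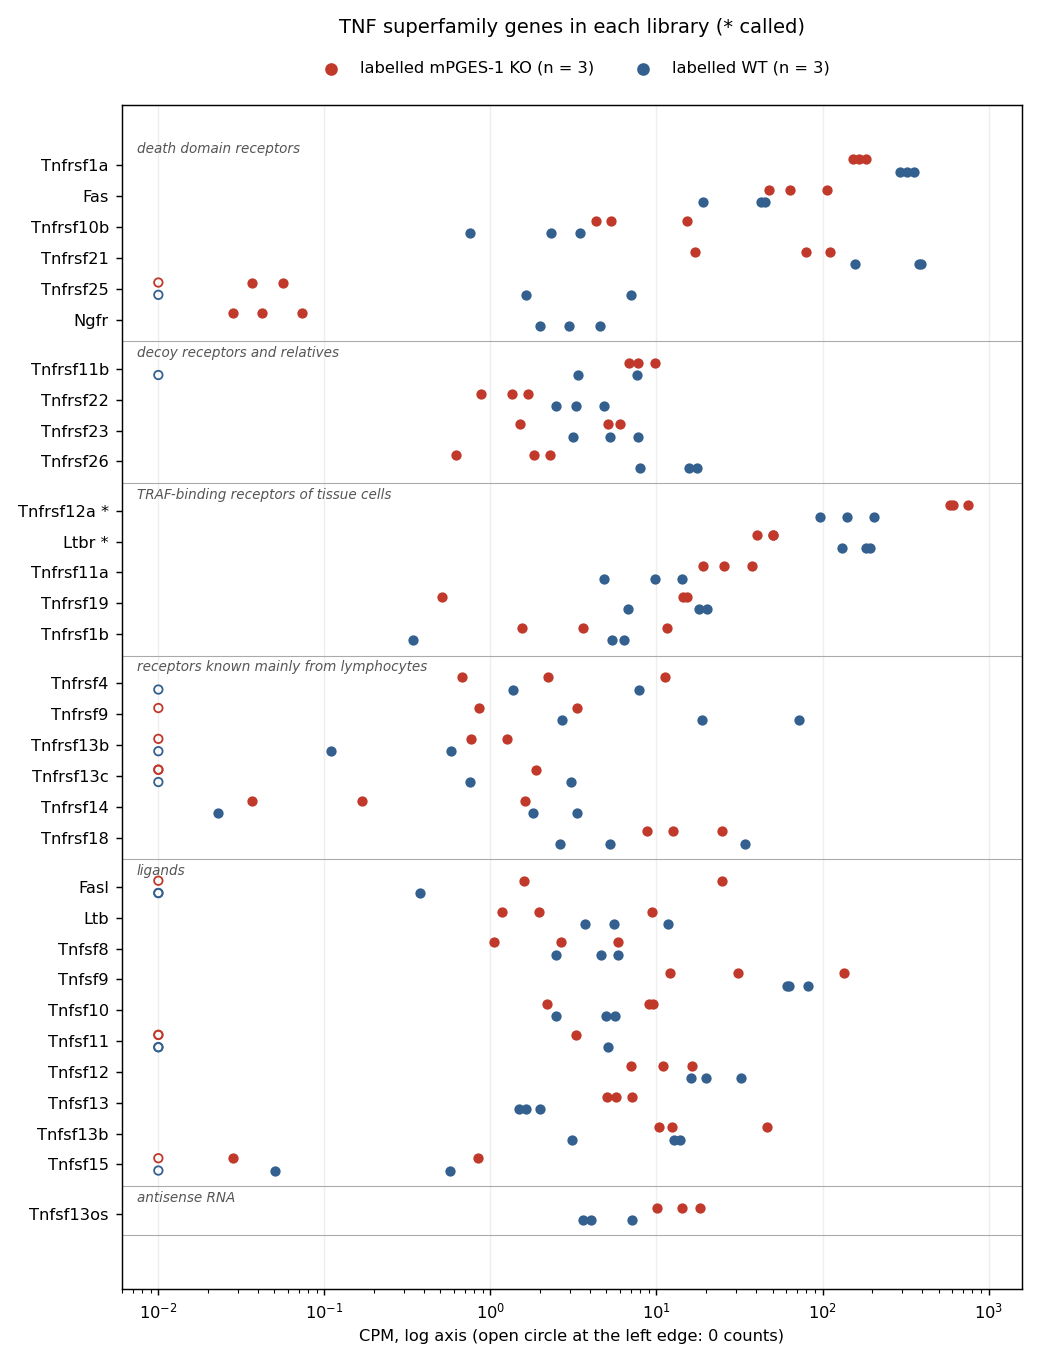
Level of each of the 32 TNF superfamily genes in CPM on a log axis, with 1 point per library, the 3 libraries labelled mPGES-1 KO in red above the 3 labelled WT in blue; open circles at the left edge mark libraries with 0 counts, and asterisks mark the 2 called genes. Tnfrsf12a and Ltbr have tight, separate groups, while the receptors known mainly from lymphocytes overlap and several have libraries at 0.

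Tnfrsf12a was the most abundant member per length in every library labelled mPGES-1 KO. It stood at 752, 613 and 585 CPM there, replicates 1 to 3, and at 96.5, 139.6 and 203 CPM in libraries labelled WT. The lowest library labelled mPGES-1 KO lay well above the highest labelled WT, and the groups did not overlap. Averages came to 650.1 ± 89.5 CPM in KO-labelled libraries and 146 ± 53.5 CPM in WT-labelled libraries (SD, n = 3 each), with a log2 fold change of 2.15 ± 0.33 (SE) and an edgeR adjusted p = 0.0271. The gene lies at chr17:23675445-23677468 on the minus strand (GENCODE M21, GRCm38), in 2 merged exonic blocks of 1932 bases, none shared with another annotated gene. The call was lost without mPGES-1 KO replicate 1 (adjusted p = 0.0613), replicate 2 (0.102) or replicate 3 (0.0782) and without WT replicate 2 (0.117), while 13 alternatives gave log2 fold changes of 1.96 to 2.46, and their edgeR, DESeq2 and limma adjusted p ran from 9.27e-08 to 0.117.

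Ltbr, the receptor through which lymphotoxin drives non-canonical NF-kB signalling, stood at 50.4, 50.6 and 40.4 CPM in libraries labelled mPGES-1 KO, replicates 1 to 3, and at 131, 183 and 194 CPM in those labelled WT. Both groups were even and did not overlap. Mean levels were 47.1 ± 5.84 CPM in KO-labelled libraries and 169 ± 33.6 CPM in WT-labelled libraries (SD, n = 3 each), with a log2 fold change of -1.85 ± 0.27 (SE) and an edgeR adjusted p = 0.0225. Ltbr lies at chr6:125306571-125313885 on the minus strand, in 10 exonic blocks of 2354 bases. Its call was lost without mPGES-1 KO replicate 1 (adjusted p = 0.0587), replicate 2 (0.106) or replicate 3 (0.0846), without WT replicate 2 (0.115) and without WT replicate 3 (0.0638). The 13 alternatives gave it log2 fold changes of -1.97 to -1.73, with an adjusted p from 1.96e-06 to 0.115 by edgeR, DESeq2 and limma. Without mPGES-1 KO replicate 2 or 3 edgeR called 0 of all tested genes, and without WT replicate 2 it called 1. Between the groups, the luminal markers differed in the direction of Tnfrsf12a and the pericyte markers in that of Ltbr. Within groups the orders matched only in part. Luminal markers took 5.21%, 3.84% and 3.48% in KO-labelled libraries, in the order of Tnfrsf12a. In WT-labelled libraries they took 1.37%, 0.785% and 0.900%, highest where Tnfrsf12a was lowest. Pericyte markers took 0.702%, 0.985% and 0.350% in WT-labelled libraries, lowest in replicate 3, where Ltbr was highest. A link was not tested.

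Tnfrsf1a lies 35.5 kb from Ltbr on chromosome 6 and encodes the main signalling receptor of soluble TNF. Its levels were 152, 184 and 167 CPM in libraries labelled mPGES-1 KO and 324, 358 and 294 CPM in those labelled WT. By the ratio of the highest to the lowest library this was the most even member in both groups, and its groups did not overlap. The log2 fold change of -0.96 ± 0.23 (SE) had an edgeR adjusted p = 0.0738, and passed in DESeq2 (0.00953) and limma-voom (0.0233). Cd27, named after its values were seen, a lymphocyte receptor gene on the other side of Ltbr, 69.6 kb away, is outside the rule and stood at 10.9, 2.98 and 33.2 CPM in KO-labelled libraries against 2.53, 1.58 and 4.04 CPM in WT-labelled libraries (adjusted p = 0.206 in edgeR).

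Other death domain receptors differed in direction from one another and none passed edgeR's test. Of the 5 tested, Tnfrsf1a and Ngfr included, 4 had an unadjusted p under 0.05 (19.1% of all tested genes), DESeq2 called 3 (12.7% of all) and limma-voom 2 (11.8% of all). Tnfrsf21, also known as death receptor 6, stood at 17.0, 111 and 79.3 CPM in libraries labelled mPGES-1 KO and at 391, 381 and 156 CPM in those labelled WT. WT replicate 3 was the low library of its group and mPGES-1 KO replicate 1 the low one of the other, with no overlap between the groups (log2 fold change -2.16 ± 0.67, SE, adjusted p = 0.131 in edgeR and 0.00790 in DESeq2). Fas, the receptor whose ligand kills target cells, had 47.8, 64.1 and 107 CPM in libraries labelled mPGES-1 KO and 42.5, 19.1 and 44.8 CPM in those labelled WT, so that the nearest libraries of the 2 groups almost met (log2 fold change 1.04 ± 0.45, adjusted p = 0.259 in edgeR). Tnfrsf10b, the signalling receptor of TRAIL in the mouse, had 15.2, 5.32 and 4.33 CPM in KO-labelled libraries against 0.751, 3.45 and 2.33 CPM in WT-labelled libraries (adjusted p = 0.352 in edgeR).

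Ngfr, the p75 neurotrophin receptor, was nearly without counts in libraries labelled mPGES-1 KO. It had 2, 1 and 1 counts there, replicates 1 to 3, and 202, 119 and 72 counts in those labelled WT. Summed counts were 4 in KO-labelled libraries and 393 in WT-labelled libraries, which makes the level 70.8-fold lower in libraries labelled mPGES-1 KO, with a 95% exact counting interval of 27.4 to 261 that covers counting error only. The edgeR adjusted p was 0.0752 (log2 fold change -5.97 ± 1.45, SE), and the gene passed in DESeq2 (3.92e-04) and limma-voom (0.0372). Tnfrsf25, death receptor 3, also had few counts in libraries labelled mPGES-1 KO, with 1, 0 and 2 counts, but those labelled WT were uneven at 0, 65 and 255 counts, and the gene was not tested. The Tnfrsf25 sums of 3 counts in KO-labelled libraries and 320 counts in WT-labelled libraries are a ratio of 76.8 in favour of the libraries labelled WT (95% exact counting interval 26.1 to 375), which rests on WT replicates 2 and 3.

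**Figure D2:**
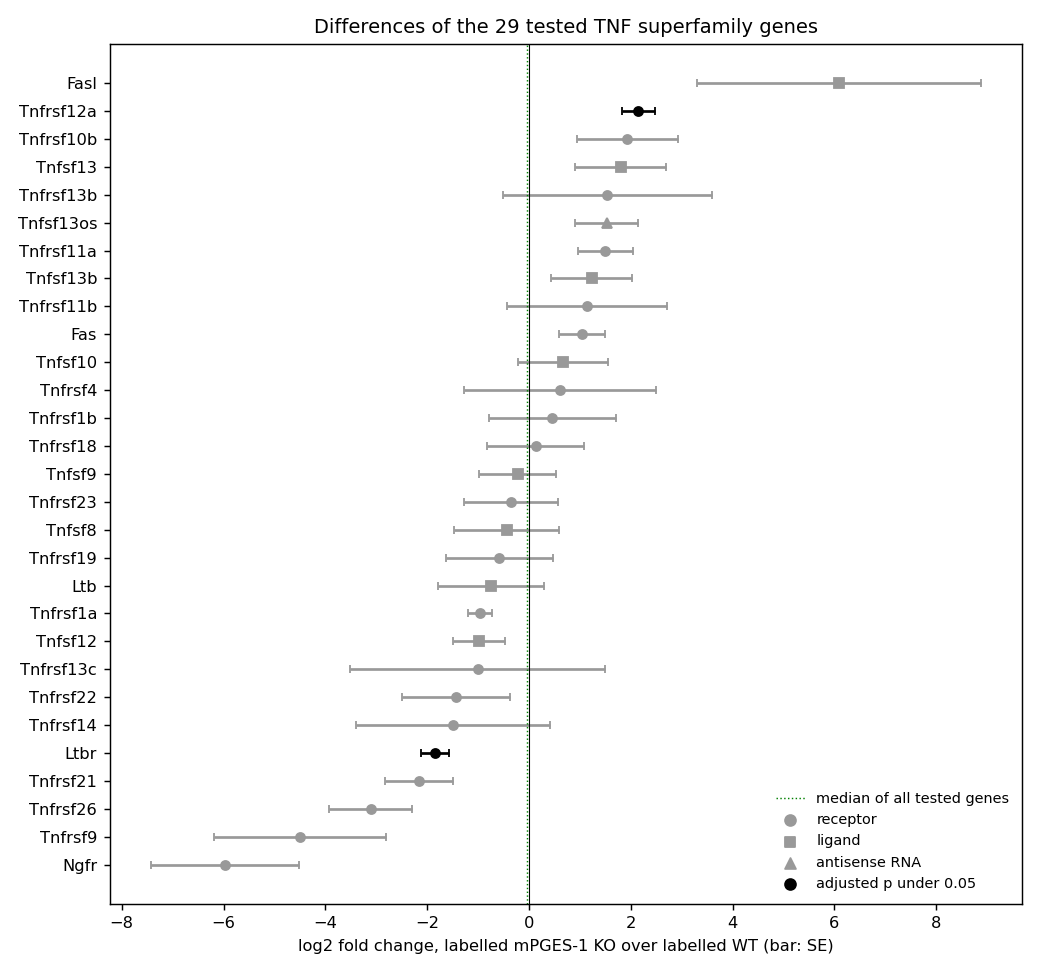
log2 fold change of the 29 tested genes, libraries labelled mPGES-1 KO over those labelled WT, with SE bars; black marks the 2 genes at an adjusted p under 0.05, squares mark ligands and the dotted line marks the median of all tested genes at -0.04. Tnfrsf12a at 2.15 and Ltbr at -1.85 have narrow bars, while Fasl at 6.09 (2.62 without mPGES-1 KO replicate 3), Tnfrsf9 at -4.50 and Ngfr at -5.97 have wide ones.

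Among receptors that bind TRAF adaptors in tissue cells, Tnfrsf11a, the receptor RANK of bone and mammary biology, missed the threshold. Its levels were 37.6, 25.5 and 19.1 CPM in libraries labelled mPGES-1 KO and 14.3, 4.85 and 9.83 CPM in those labelled WT, and the groups did not overlap (log2 fold change 1.50 ± 0.54, SE, adjusted p = 0.182 in edgeR and 0.0394 in limma-voom). Tnfrsf19, also called TROY, had 0.512, 15.2 and 14.4 CPM in KO-labelled libraries against 18.1, 6.74 and 20.2 CPM in WT-labelled libraries, with mPGES-1 KO replicate 1 far below every other library (adjusted p = 0.833 in edgeR). Tnfrsf1b, the second TNF receptor, had 11.5, 3.60 and 1.56 CPM in KO-labelled libraries against 0.342, 5.38 and 6.37 CPM in WT-labelled libraries, with overlapping groups (adjusted p = 0.893 in edgeR), and its direction turned without mPGES-1 KO replicate 1, without WT replicate 1 and in limma-voom.

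Decoy receptors and a relative sat together in the genome. Tnfrsf22, Tnfrsf23 and Tnfrsf26 are neighbours on chromosome 7, at gaps of 6.08 and 16.1 kb; the first 2 are known in the mouse as decoy receptors of TRAIL, and reads of such close relatives may be divided among them, so these values are uncertain. Tnfrsf26 had 0.622, 1.84 and 2.29 CPM in libraries labelled mPGES-1 KO and 17.5, 7.95 and 15.7 CPM in those labelled WT, with no overlap (log2 fold change -3.11 ± 0.82, SE, adjusted p = 0.0925 in edgeR and 9.73e-04 in DESeq2). Tnfrsf22 had 0.878 to 1.68 CPM in KO-labelled libraries against 2.47 to 4.83 CPM in WT-labelled libraries, also apart (adjusted p = 0.537 in edgeR). Tnfrsf23 overlapped, at 6.07, 5.11 and 1.50 CPM in KO-labelled libraries against 5.28, 3.14 and 7.71 CPM in WT-labelled libraries (adjusted p = 0.891 in edgeR). Tnfrsf11b, which encodes osteoprotegerin, the soluble decoy of the RANK ligand, had 7.75, 6.79 and 9.74 CPM in KO-labelled libraries against 0, 3.37 and 7.63 CPM in WT-labelled libraries, an overlap made by WT replicate 3 (adjusted p = 0.770 in edgeR).

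The 6 receptors known mainly from lymphocytes all had overlapping groups, while 27.9% of all tested genes had groups apart. Of the 6, 0 passed edgeR (2.76% of all), 1 had an unadjusted p under 0.05 (19.1% of all) and DESeq2 called 1 (12.7% of all). Tnfrsf9, the co-stimulatory receptor CD137, had 0, 3.31 and 0.850 CPM in libraries labelled mPGES-1 KO and 72.1, 18.8 and 2.69 CPM in those labelled WT. Its high values came from WT replicates 1 and 2, and WT replicate 3 lay within the other group (log2 fold change -4.50 ± 1.69, SE, adjusted p = 0.199 in edgeR and 0.00903 in DESeq2). Tnfrsf18, the receptor GITR of regulatory T cells, had 8.74, 12.6 and 24.7 CPM in KO-labelled libraries against 2.62, 5.23 and 34.3 CPM in WT-labelled libraries, with WT replicate 3 the highest of all (adjusted p = 0.964 in edgeR), and Gm16008, an opposite-strand gene that covers 27.2% of its exonic bases, reached at most 1.03 CPM. Tnfrsf4, the receptor OX40, lies 9.55 kb from Tnfrsf18 and had the same highest library within each group, at 0.671 to 11.2 CPM in KO-labelled libraries against 0 to 7.88 CPM in WT-labelled libraries. Tnfrsf14, Tnfrsf13b and Tnfrsf13c, the last 2 being receptors of the B cell factor BAFF, had means from 0.229 to 1.72 CPM in either group.

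Markers of T and NK cells took 0.00481%, 0.00757% and 0.0415% of counts in libraries labelled mPGES-1 KO, replicates 1 to 3, and 0.00347%, 0.00390% and 0.00832% in those labelled WT. The third library of each group was thus the highest of its group. Of 10 tested T and NK markers 0 passed in edgeR, and the groups overlapped in sum. Cd8a was at 0 in mPGES-1 KO replicate 2, Klrb1c in mPGES-1 KO replicate 3 and WT replicate 3, and Cd2, Cd8a and Gzma in WT replicate 1. Myeloid markers took 0.172% to 0.301% in KO-labelled libraries against 0.0624% to 0.142% in WT-labelled libraries. Of 13 tested, 1, Cd14, was called, higher, beside 1.20% of all tested genes called higher. Cd14 and Lyz2 held most of this sum, and the macrophage markers Cd68, Adgre1, Csf1r, Fcgr1, Tyrobp and Fcer1g had overlapping groups, with a negative log2 fold change for Csf1r (-0.83) and Fcgr1 (-0.41). Their part in the levels of the lymphocyte receptors and ligands was not tested.

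Ligands were mostly low and none passed. Of 8 tested, 0 had an unadjusted p under 0.05 (19.1% of all tested genes), and 0 passed in DESeq2 (12.7% of all) or limma-voom (11.8% of all). Fasl, the ligand of Fas and a product of cytotoxic lymphocytes, had 0, 1.59 and 24.8 CPM in libraries labelled mPGES-1 KO and 0, 0.377 and 0 CPM in those labelled WT. Nearly all of its counts lay in mPGES-1 KO replicate 3, the library with the most T and NK marker counts. However, WT replicate 3, with a T and NK share of 0.00832%, had 0 Fasl counts, while mPGES-1 KO replicate 2, at 0.00757%, had 38. The log2 fold change of Fasl, 6.09 ± 2.79 (SE), had an edgeR adjusted p = 0.291. Leaving out 1 library moved that value widely, to 2.62 without mPGES-1 KO replicate 3 (adjusted p = 0.714 in edgeR) and to 11.21 without WT replicate 2 (0.311). Tnfsf9, the ligand of CD137, was the most abundant ligand per length in each group's mean, at 134, 30.8 and 12.0 CPM in libraries labelled mPGES-1 KO and 61.3, 82.3 and 63.0 CPM in those labelled WT. The libraries labelled WT were even, while those labelled mPGES-1 KO spanned 11.2-fold and lay on both sides of them (adjusted p = 0.917 in edgeR), and the direction turned without mPGES-1 KO replicate 2 or replicate 3. Gm11110, on the opposite strand, covers 14.9% of the exonic bases of Tnfsf9 and reached at most 6.13 CPM.

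Tnfsf12 and Tnfsf13, the genes of the ligands TWEAK and APRIL, lie 0.466 kb apart on chromosome 11. Tnfsf12 had 16.4, 7.00 and 11.0 CPM in libraries labelled mPGES-1 KO and 19.8, 16.2 and 32.1 CPM in those labelled WT, a slight overlap (log2 fold change -0.98 ± 0.51, SE, adjusted p = 0.364 in edgeR). Tnfsf13 had 5.05, 7.08 and 5.69 CPM in KO-labelled libraries against 2.00, 1.64 and 1.48 CPM in WT-labelled libraries, and its groups were apart (log2 fold change 1.80 ± 0.90, SE, adjusted p = 0.340 in edgeR). These values are uncertain, since the read-through gene Tnfsfm13, which the rule does not include, covers 48.3% of the exonic bases of Tnfsf12 and 60% of those of Tnfsf13. Tnfsfm13 held 24, 6 and 23 counts in KO-labelled libraries against 74, 52 and 85 in WT-labelled libraries. The antisense RNA Tnfsf13os, which shares 13.5% of the exonic bases of Tnfsf13, had 14.2, 10.1 and 18.4 CPM in KO-labelled libraries against 7.15, 3.62 and 4.06 CPM in WT-labelled libraries, and its groups were apart too (adjusted p = 0.236 in edgeR). The library kit does not mark strand, so reads in shared bases cannot be assigned to Tnfsf13 or Tnfsf13os.

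Tnfsf13b, which encodes BAFF, the B cell survival factor, had 12.4, 10.4 and 46.4 CPM in libraries labelled mPGES-1 KO and 13.8, 3.09 and 12.7 CPM in those labelled WT. Only mPGES-1 KO replicate 3 stood above the range of the other group (adjusted p = 0.473 in edgeR). Ltb, the membrane anchor of the lymphotoxin that Ltbr binds, had 1.17, 1.97 and 9.46 CPM in KO-labelled libraries against 3.69, 5.58 and 11.8 CPM in WT-labelled libraries, with the third library highest in each group (adjusted p = 0.773 in edgeR). Tnfsf10, the death ligand TRAIL, had 2.19, 9.47 and 9.03 CPM in KO-labelled libraries against 4.94, 2.47 and 5.60 CPM in WT-labelled libraries (adjusted p = 0.757 in edgeR). Tnfsf8, the CD30 ligand, averaged 3.19 ± 2.45 CPM in KO-labelled libraries and 4.33 ± 1.74 CPM in WT-labelled libraries (SD, n = 3 each). Tnfsf11, the RANK ligand, had 115 counts in mPGES-1 KO replicate 3, 186 counts in WT replicate 3 and 0 counts in the other 4 libraries, and Tnfsf15 had at most 25 counts in any library.

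Set side by side per length, the family differed between the groups in its make-up. CPM per kilobase of exonic length, summed over the 32 members, was 656, 541 and 561 in libraries labelled mPGES-1 KO and 465, 499.7 and 504 in those labelled WT. Without Tnfrsf12a the order turned, at 266, 224 and 258 in KO-labelled libraries against 416, 427 and 399 in WT-labelled libraries. Summed CPM, not divided by length, overlapped at 1300, 1187 and 1217 in KO-labelled libraries against 1243, 1271 and 1165 in WT-labelled libraries. Of the sum per kilobase, Tnfrsf12a made up 59.4%, 58.6% and 54.0% in libraries labelled mPGES-1 KO and 10.7%, 14.5% and 20.9% in those labelled WT. Tnfrsf1a made up 8.96%, 13.1% and 11.5% of the same sum per kilobase in KO-labelled libraries against 26.9%, 27.7% and 22.5% in WT-labelled libraries. Ltbr made up 3.06% to 3.97% of it in KO-labelled libraries against 12.0% to 16.3% in WT-labelled libraries. Since shares of a sum depend on each other, the share of Tnfrsf12a and those of the other members are not separate results.

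**Figure D3:**
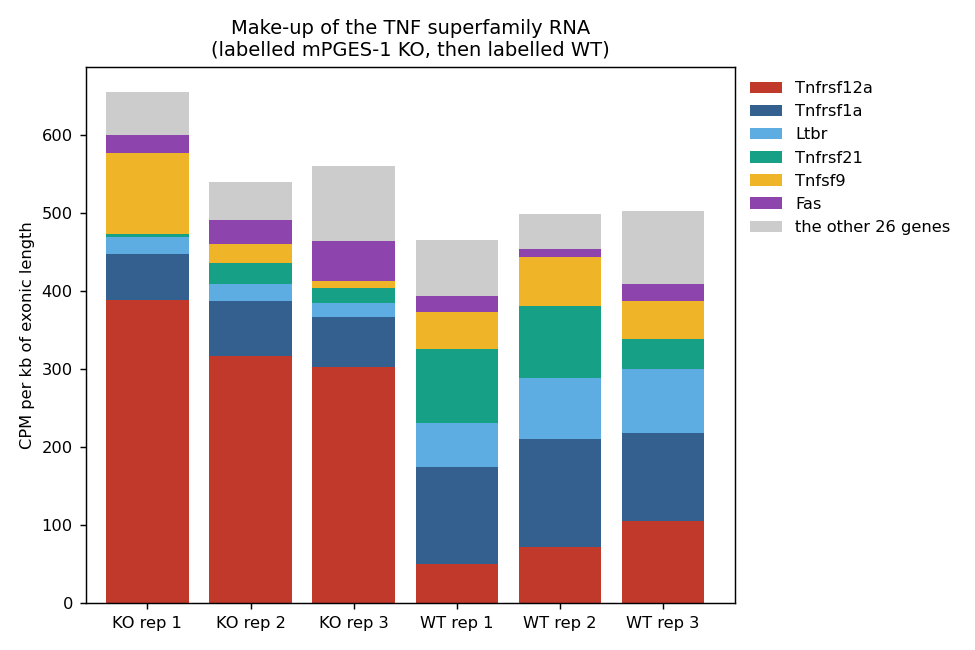
CPM per kilobase of exonic length, stacked over the TNF superfamily genes, with 1 bar for each of the 3 libraries labelled mPGES-1 KO and then the 3 labelled WT. Tnfrsf12a fills 54.0% to 59.4% of the bars labelled mPGES-1 KO and 10.7% to 20.9% of those labelled WT, where Tnfrsf1a, Ltbr and Tnfrsf21 are taller.

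In the libraries labelled mPGES-1 KO the order of mean levels per kilobase began with Tnfrsf12a at 336 ± 46.3, far above Tnfrsf1a at 64.7 ± 6.14, Tnfsf9 at 45.7 ± 50.9 and Fas at 35.4 ± 14.8 (CPM per kilobase, SD, n = 3). Tnfrsf12a did not overlap the next member, whereas Tnfsf9 overlapped both Tnfrsf1a and Fas. In the libraries labelled WT the order began with Tnfrsf1a at 126 ± 12.5, followed by Tnfrsf12a at 75.7 ± 27.7, Tnfrsf21 at 75.3 ± 32.3, Ltbr at 72.0 ± 14.3 and Tnfsf9 at 53.4 ± 9.02. Tnfrsf1a did not overlap the next member, while the 3 that followed it overlapped one another. Of a ligand and receptor pair, Tnfrsf12a had 45.8, 87.6 and 53.2 counts for each count of Tnfsf12 in libraries labelled mPGES-1 KO, against 4.88, 8.62 and 6.32 in those labelled WT. These ratios are of raw counts, not divided by length. They are uncertain, since the read-through gene Tnfsfm13 covers 48.3% of the exonic bases of Tnfsf12.

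The other family genes, chosen as a list of 10 outside the rule, held 7 that were tested (Lta, Cd70 and Edar were not analysed here). Of the 7 tested, 1 rose (1.20% of all tested genes), 0 fell (1.56%) and 2 had an unadjusted p under 0.05 (19.1%). Their median log2 fold change was 0.62, against -0.04 over all tested genes. Tnf, the founding ligand, rose to 701, 276 and 215 CPM in libraries labelled mPGES-1 KO, against 53.0, 29.6 and 21.9 CPM in those labelled WT (log2 fold change 3.51 ± 0.57, SE, adjusted p = 0.0281 in edgeR). Replicate 1 was the highest of each group and the groups were far apart. Its call was lost without mPGES-1 KO replicate 2 (adjusted p = 0.102) or replicate 3 (0.0677) and without WT replicate 2 (0.119) or replicate 3 (0.0799), while 13 alternatives gave log2 fold changes of 2.82 to 3.97. Cd40, a co-stimulatory receptor, stood at 14.5 ± 11.0 CPM in KO-labelled libraries and 12.9 ± 1.82 CPM in WT-labelled libraries (SD, n = 3 each, adjusted p = 0.927 in edgeR). Myeloid cells are known to make Tnf. Ptprc, a marker of all leukocytes, stood at 32.4 ± 23.9 CPM in KO-labelled libraries and 6.71 ± 2.65 CPM in WT-labelled libraries (SD, n = 3 each, adjusted p = 0.109 in edgeR). By library, Ptprc had 21.5, 15.9 and 59.8 CPM under the KO label and 8.15, 3.65 and 8.32 CPM under the WT label. Ptprc was thus highest in replicate 3 of each group, whereas Tnf was highest in replicate 1. The part of leukocytes in the level of Tnf was not tested.

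**Figure D4:**
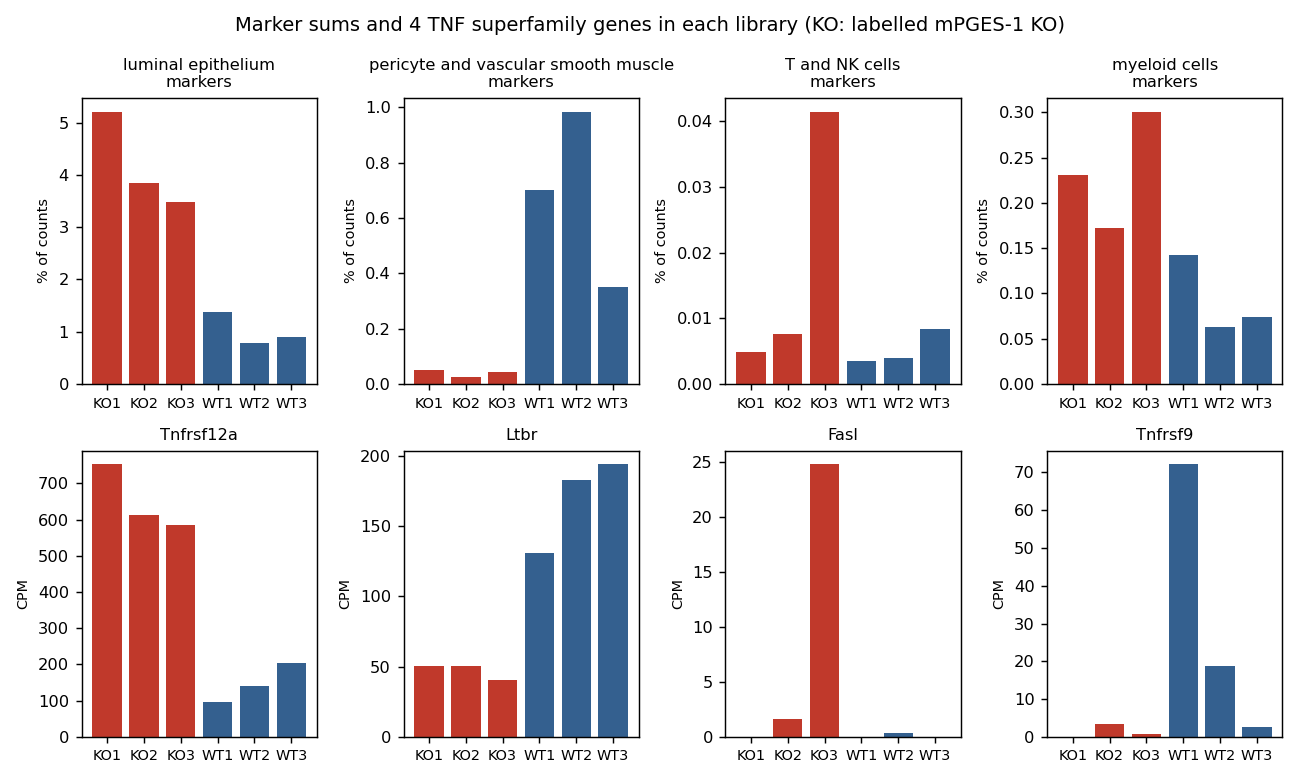
Upper panels give the summed share of counts, in percent, of 4 marker lists in each library, and lower panels give CPM of Tnfrsf12a, Ltbr, Fasl and Tnfrsf9, with the 3 libraries labelled mPGES-1 KO in red left of the 3 labelled WT in blue. Luminal and pericyte markers separate the groups as Tnfrsf12a and Ltbr do, mPGES-1 KO replicate 3 is highest in T and NK markers and in Fasl, and Tnfrsf9 is high in WT replicates 1 and 2.

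In 4 further lists of signalling and processing genes, 3 genes passed edgeR's test. None of 20 TRAF adaptors and receptor-proximal proteins passed edgeR, while 6 had an unadjusted p under 0.05, against 19.1% of all tested genes. DESeq2 called 4 of these 20, against 12.7% of all, and limma-voom 3, against 11.8%, and their median log2 fold change was 0.36. Chuk, an IkB kinase subunit, and the adaptor Traf4 averaged 97.4 ± 30.1 and 92.9 ± 30.2 CPM in libraries labelled mPGES-1 KO, against 62.9 ± 28.2 and 116 ± 19.7 CPM in those labelled WT (SD, n = 3 each). Birc3, a ubiquitin ligase bound to TRAF proteins, had 100.4, 116 and 120.1 CPM in KO-labelled libraries against 26.3, 48.0 and 49.8 CPM in WT-labelled libraries and missed the threshold (adjusted p = 0.0607 in edgeR).

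Of 13 death receptor execution and necroptosis genes 1 rose and 0 fell, with a median log2 fold change of -0.28 (-0.04 over all tested genes, of which 2.76% were called). That gene was Bid, which links caspase-8 to mitochondria, at 45.6, 62.4 and 52.7 CPM in libraries labelled mPGES-1 KO and 14.5, 12.1 and 8.81 CPM in those labelled WT (adjusted p = 0.0281 in edgeR, log2 fold change 2.18 ± 0.36, SE). Of the 13, 4 had groups apart with higher values under the KO label (12.2% of all tested genes) and 2 with lower values (15.7%). Those 2 were Faim (log2 fold change -0.98, adjusted p = 0.169 in edgeR) and Ripk3. Ripk3 had 9.29, 11.4 and 0 CPM in KO-labelled libraries against 94.5, 80.5 and 46.0 CPM in WT-labelled libraries (adjusted p = 0.233 in edgeR). Of 12 deubiquitinases and feedback inhibitors 1 rose and 0 fell, beside 1.20% of all tested genes called higher. Of the 12 log2 fold changes 11 were positive (91.7%, against 48.4% of all tested genes), with a median of 0.43, and no test of this share was made. The list includes Relb (log2 fold change 0.21), which encodes an NF-kB subunit. The gene called was Tnfaip3, the NF-kB feedback inhibitor A20, at 372, 241 and 293 CPM in KO-labelled libraries against 77.0, 58.3 and 67.3 CPM in WT-labelled libraries (adjusted p = 0.0172 in edgeR). Of 6 sheddases and processing enzymes 1 fell and 0 rose, beside 1.56% of all tested genes called lower, with a median of 0.20. Mmp14, a membrane-bound matrix protease, stood at 275, 131 and 145 CPM in KO-labelled libraries against 514, 735 and 699.9 CPM in WT-labelled libraries (adjusted p = 0.0451 in edgeR), while Adam17, the enzyme that sheds TNF, averaged 53.9 ± 18.7 CPM in KO-labelled libraries and 31.4 ± 6.61 CPM in WT-labelled libraries (SD, n = 3 each, adjusted p = 0.311 in edgeR). Bid, Tnfaip3 and Mmp14 each lost their call without mPGES-1 KO replicate 2 (adjusted p = 0.119, 0.0881 and 0.180) or replicate 3 (0.0866, 0.0677 and 0.144) and without WT replicate 2 (0.117, 0.0869 and 0.177), Bid and Mmp14 also without WT replicate 3 (0.0756 and 0.112), Bid without mPGES-1 KO replicate 1 (0.0586), and Mmp14 with DESeq2 size factors.

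**Figure D5:**
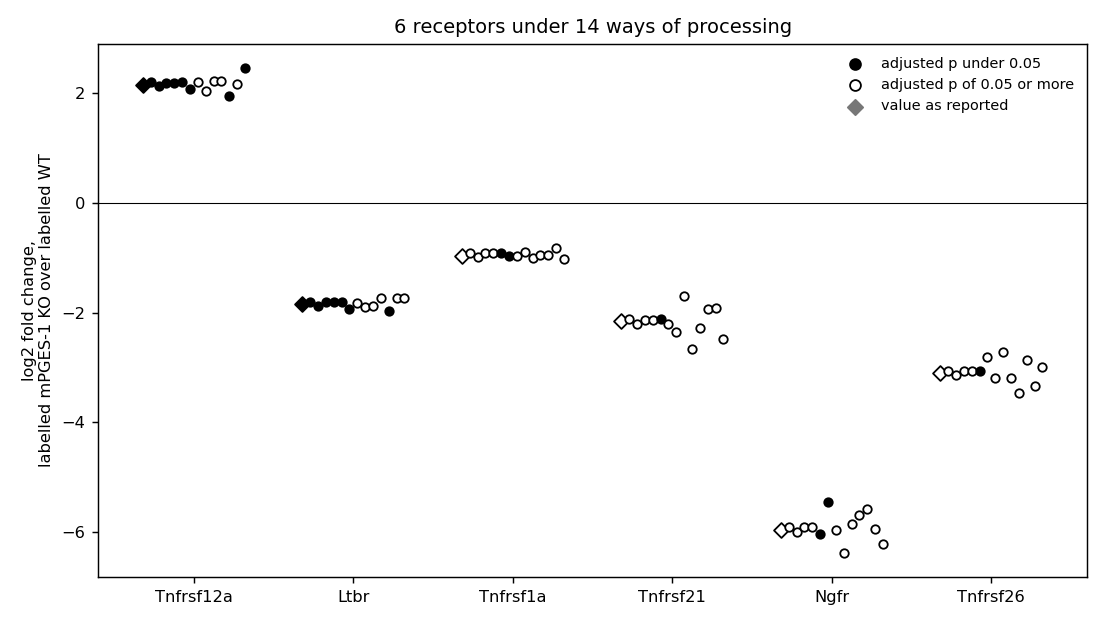
log2 fold change of 6 receptors, libraries labelled mPGES-1 KO over those labelled WT, under the reported fit (diamond) and 13 alternatives (circles); filled symbols passed an adjusted p of 0.05. Every symbol of Tnfrsf12a lies between 1.96 and 2.46 and every symbol of Ltbr between -1.97 and -1.73, though only part of them are filled.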

How the data were processed

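RNA-seq was available for 6 libraries of sorted cancer-associated fibroblasts, 3 labelled mPGES-1 KO and 3 labelled WT. Per the labels' protocols, cDNA was made with a template-switching ultra-low input kit, amplified by PCR and sequenced as single reads; such kits mark neither strand nor molecules, so intervals cover counting error only. The authors deposited raw read counts per gene symbol without normalization. FastQC 0.11.5, STAR and mm10 appear in the submitters' processing notes. The sources used here do not give how reads were counted or on which annotation.

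The test was edgeR 4.0.16 in R 4.3.3 (filterByExpr, TMM, robust quasi-likelihood fit on genotype, two-sided), with Benjamini-Hochberg adjustment over 16543 of 18197 symbols. SE is the log2 fold change over the square root of F. CPM uses TMM-scaled totals; 3 counts stand for 0.0683 to 0.126 CPM. The common biological coefficient of variation was 0.818. The test was tried on counts simulated with the spread of these data. There edgeR recovered 1 of 50 genes changed by a log2 fold of 1, 10 of 50 at 2, 28 of 50 at 4 and 39 of 50 at 6, with 2 false calls. Failing edgeR's test therefore does not show that a member was unchanged. On the same simulated counts DESeq2 recovered 3, 21, 38 and 48 of 50 genes at these folds, with 81 false calls. There limma-voom recovered 1, 8, 20 and 31 of 50, with 0 false calls. A pass in DESeq2 alone is therefore less certain than a pass in edgeR. Alternatives were other scalings and filters, DESeq2 1.42.0, limma 3.58.1 voom, the replicate number as a block and each library left out. The members and lists were chosen with earlier results of these data known. Cd27, Cd40, Adam17, the promoters and the motifs were chosen after the values were seen. All members are named. Levels in every library are given for those called, those averaging at least 5 CPM in a group, and those apart by a log2 fold change of at least 2 with at least 1 CPM in a group; the others have ranges, means or counts. Positions and exonic lengths come from GENCODE M21.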

Additional observations from a re-analysis of the deposited data

How the results depend on the processing

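Over 13 alternatives, 22 of the 29 tested members kept their direction, and of 374 values 343 kept direction and side of the threshold. With DESeq2, 1 member was higher and 6 were lower (2093 of all genes called), and with limma-voom 2 were higher and 3 lower (1944). The sources used here do not state that the replicate numbers mark a shared litter, batch or day. Deviations of same-numbered libraries correlated at -0.0634, 0.0278 and -0.0166, which with 3 libraries per group cannot settle whether the numbers pair them. With the number as a block, edgeR called 0 members in either direction and 0 of all genes, with 8 members at an unadjusted p under 0.05. The edgeR adjusted p was then 0.0972 for Tnfrsf12a and 0.0935 for Ltbr. Tnf, Bid, Tnfaip3 and Mmp14 lost their calls with the block too. Leaving out 1 library gave 0 to 1 members higher, 0 to 1 lower and 0 to 568 of all genes called, and 7 to 10 members at an unadjusted p under 0.05. Other scalings and filters left Tnfrsf12a and Ltbr as the called members. The causes were not tested, though each such fit has fewer libraries or residual degrees of freedom.

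The directions that turned were all of uncalled members. Leaving out 1 library gave log2 fold changes of -1.22 to 0.01 for Tnfsf8, -1.68 to 0.26 for Tnfsf9, -0.64 to 0.95 for Tnfrsf1b, -1.08 to 2.79 for Tnfrsf4, -0.70 to 0.06 for Tnfrsf23, -0.39 to 1.96 for Tnfrsf18 and -8.52 to 0.72 for Tnfrsf13c. Tnfsf8 was at 0.01 and Tnfsf9 at 0.12 without mPGES-1 KO replicate 2. Without mPGES-1 KO replicate 3, Tnfsf9 was at 0.26, Tnfrsf4 at -1.08, Tnfrsf23 at 0.06 and Tnfrsf18 at -0.39. Tnfrsf1b was at -0.64 without mPGES-1 KO replicate 1, at -0.04 without WT replicate 1 and at -0.17 in limma-voom. Tnfrsf18 was at -0.32 without WT replicate 1 and at -0.22 without WT replicate 2, and Tnfrsf13c at 0.72 without WT replicate 3. Members with libraries at 0 have folds that depth limits.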
